A study of Mus musculus with 16 samples.

Results

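This report describes 36 genes of 55487 in a table of RNA sequencing counts: the transcription factor gene Myc, its dimer partner Max, the competing repressor genes Mxd1 and Mxd4, and 32 genes whose products build ribosomes in the nucleolus. They were chosen with earlier results of these data known, so shares of members set beside those of all genes are descriptions. They were taken by symbol, and each symbol matched 1 row of the table. All 36 passed the filter on low counts, which left 14435 genes for testing. The question put to them was whether the 32 ribosome biogenesis genes followed the level of Myc over the groups and the single libraries.

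The cells were mouse leukaemia cells that express CBFB::MYH11, the fusion oncogene of inv(16) leukaemia, together with GFP. Per the design text they held an shRNA construct targeting MYH11 that doxycycline switches on, and recipients were congenic; the labels of the control libraries name fusion-expressing cells without mentioning the shRNA. After engraftment, mice drank 5% sucrose alone (control) or with 3 mg/ml doxycycline for 7 days, and GFP-sorted cells were taken from bone marrow or spleen. This gave 3 libraries for each of 4 groups, control and doxycycline in either tissue. A separate cohort stayed on treatment until signs of fatal disease, and its 4 secondary disease libraries are labelled as doxycycline-treated spleen. No group received doxycycline without the shRNA, so drug and knockdown cannot be told apart. Secondary disease also differs from the 7-day groups by cohort and duration, and these cannot be told apart either. Mouse strain and age, and whether each numbered sample is a separate animal or whether marrow and spleen came from the same animals, are not stated in the labels. The p-values therefore measure how these samples spread, which may be technical.

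MYC pairs with MAX to bind the DNA motif CACGTG, the E-box, and to raise transcription of growth genes. MXD1 and MXD4 also pair with MAX, bind the same motif and repress. Ribosome biogenesis is a classical output of MYC: RNA polymerase I copies ribosomal DNA, small nucleolar ribonucleoprotein particles modify the transcript, the small subunit processome folds and cleaves it, and further factors assemble the large subunit. In blood cells, high MYC goes with growth and MXD1 rises with terminal differentiation.

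The sequences below show where the motif through which MYC and its competitors act lies near the starts of these genes. RefSeq (GRCm38.p6) windows from 250 bases before to 50 bases after the annotated start were at hand for 30 of the 36 genes, and 6 (Myc, Npm1, Fbl, Bop1, Rrp12 and Rrs1) had no entry. CACGTG, which reads the same on both strands, occurred in 10 of the 30 windows (33.3%), against 8.09% of 27025 gene windows in the table and 11.8% of the 10030 tested genes with a window. Each line gives 30 bases on the gene's strand, 5′ to 3′, with the motif in capitals.

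Mxd4, chr5:34187912-34187941, minus strand: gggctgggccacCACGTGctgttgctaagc

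Nop2, chr6:125131811-125131840, plus strand: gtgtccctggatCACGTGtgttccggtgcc

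Grwd1, chr7:45830740-45830769, minus strand: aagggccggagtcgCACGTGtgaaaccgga

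Utp4, chr8:106893643-106893672, plus strand: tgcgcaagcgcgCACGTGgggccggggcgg

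Utp20, chr10:88826765-88826794, minus strand: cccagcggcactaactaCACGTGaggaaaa

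Pes1, chr11:3963965-3963994, plus strand: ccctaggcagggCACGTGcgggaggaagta

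Mybbp1a, chr11:72441347-72441376, plus strand: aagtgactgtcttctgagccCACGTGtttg

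Nle1, chr11:82908355-82908384, minus strand: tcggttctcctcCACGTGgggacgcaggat

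Max, chr12:76962234-76962263, minus strand: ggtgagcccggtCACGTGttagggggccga

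Wdr43, chr17:71616220-71616249, plus strand: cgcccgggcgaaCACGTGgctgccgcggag

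In 7 of these genes the motif began downstream of the annotated start, and in 3 (Mxd4, Nop2 and Max) it began upstream. In Max the motif began 3 bases before the start and ran across it. The distances ran from 2 bases downstream in Pes1 to 219 bases upstream in Mxd4. A match is a description of the letters and not evidence that a factor binds there.

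Total expected counts per library, which are estimated read counts per gene, ran from 12.26 M in secondary disease replicate 4 to 39.42 M in spleen control replicate 3. Levels are given as CPM, counts scaled to library size with TMM factors, and 3 counts correspond to at most 0.260 CPM in any library. The mouse gene Myh11 had 0 to 9 expected counts per library across all groups, so it gives no check of the knockdown. Of the leukaemia and myeloid markers, Kit, Gata2 and Il1rl1 were detected in every library, while Ptprc, the pan-leukocyte antigen gene, was at 1.06 to 17.3 CPM and Cd34 at 0.897 CPM or less. Summed markers of T and NK cells were at 1.54 to 19.2 CPM, of B and plasma cells at 19.7 to 146 CPM and of macrophages at 15.6 to 106 CPM. A few libraries stood apart. Spleen doxycycline replicates 2 and 3 carried 7.15 and 3.73% of their counts in haemoglobin genes, against 0.527% in replicate 1. The 14 leukaemia and myeloid markers summed to 576 CPM in spleen doxycycline replicate 2 and to 1074 CPM in secondary disease replicate 4, against 1991 to 2765 CPM elsewhere. Secondary disease replicate 4 was also the shallowest library, and 7.78% of its counts were mitochondrial.

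Myc was highest in the control spleen. Its level was 386, 362 and 386 CPM in the 3 spleen control libraries. In bone marrow controls it was 263, 226 and 292 CPM. After 7 days of doxycycline it was 200, 189 and 236 CPM in bone marrow. All 3 spleen control libraries thus lay above every bone marrow library, while bone marrow control and doxycycline libraries overlapped. In the spleen after doxycycline, Myc was 328 CPM in replicate 1 and 173 and 167 CPM in replicates 2 and 3. In secondary disease it was 344, 319, 280 and 206 CPM, with replicate 4 the lowest.

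By group mean the order of Myc was spleen control (378 ± 14.1 CPM, SD, n = 3), secondary disease (287 ± 60.1, n = 4), bone marrow control (260 ± 32.9, n = 3), spleen doxycycline (223 ± 91.0, n = 3) and bone marrow doxycycline (208 ± 24.6, n = 3). Of the neighbours in this order, only spleen control and secondary disease did not overlap. On the deposited TPM scale, which corrects for transcript length, Myc ranked 9 among the 36 genes with a median of 182 TPM, and Mxd1 was the lowest at 15.0 TPM. The most abundant was Npm1, a nucleolar chaperone gene, at 1340 TPM.

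Mxd1 was the member with the clearest response to doxycycline. It was at 46.5, 43.9 and 62.4 CPM in bone marrow controls and at 135, 151 and 143 CPM after doxycycline. The treated marrow libraries lay close together and well above all controls. In the spleen it was at 33.3, 32.8 and 37.7 CPM in controls and at 44.2, 194 and 80.8 CPM after doxycycline. All 3 treated spleen libraries exceeded the controls, but replicate 1 only narrowly. In secondary disease the 4 libraries ranged from 39.4 to 53.9 CPM, above the spleen controls and overlapping the treated spleen.

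The ratio of Myc to Mxd1 CPM put both genes into 1 value per library. It was 10.2 to 11.6 in spleen controls and 4.68 to 5.65 in bone marrow controls. It was 1.25 to 1.65 in bone marrow after doxycycline, and 7.41, 0.894 and 2.07 in the treated spleen. Secondary disease lay at 5.19 to 7.19, overlapping the bone marrow controls and below all spleen controls. Max, whose product both sides of the network need, ranged only from 95.2 to 131 CPM. Mxd4 was at 40.5 to 78.0 CPM in 15 libraries and at 15.6 CPM in spleen doxycycline replicate 2.

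**Figure D1:**
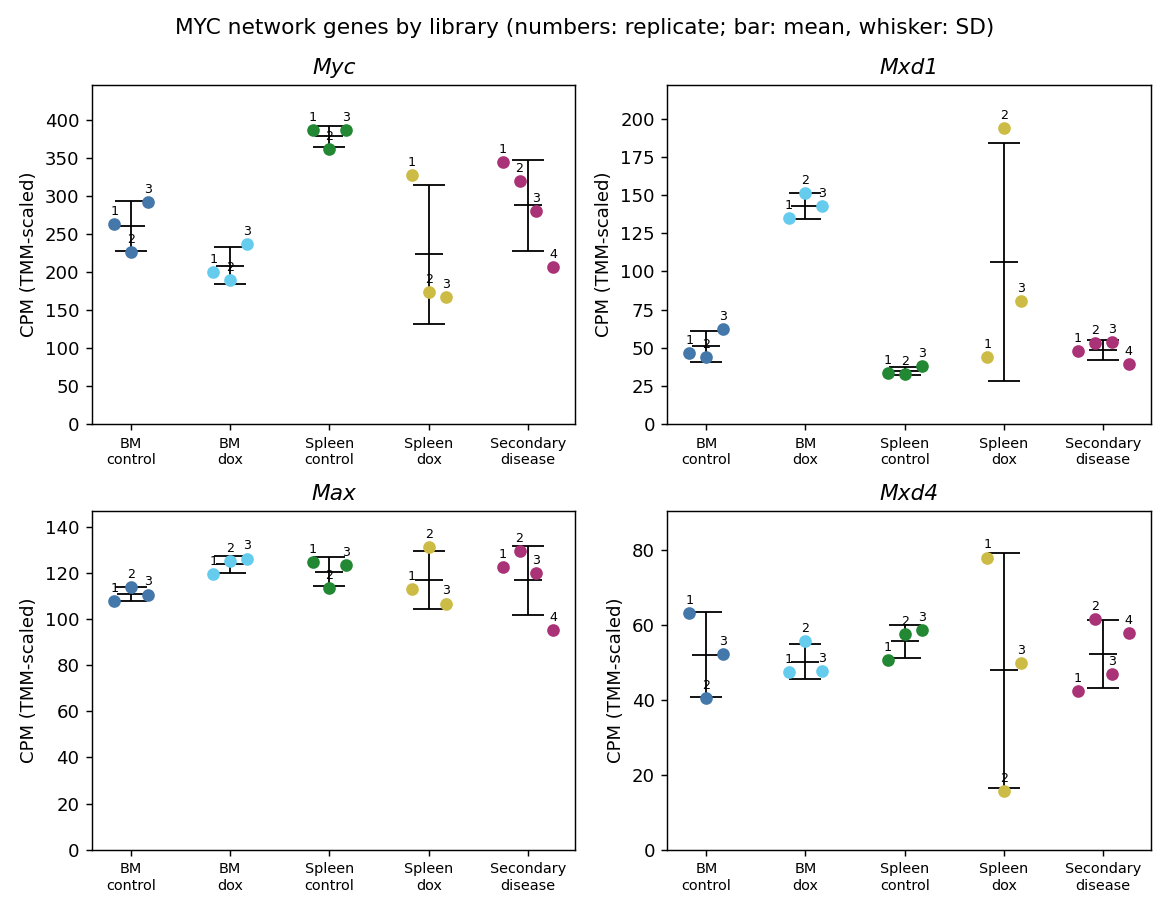
CPM of Myc, Max, Mxd1 and Mxd4 in each of the 16 libraries by group (BM, bone marrow; dox, doxycycline), with numbered points for libraries, bars for the mean and whiskers for the SD. Mxd1 is at 135 to 151 CPM in treated bone marrow against 43.9 to 62.4 CPM in its controls, and Myc is at 362 CPM or more in the 3 spleen controls.

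In bone marrow, Mxd1 rose after 7 days of doxycycline, while the ribosome biogenesis genes had small values on both sides of 0. Mxd1 was 2.81-fold higher (log2 fold change 1.49, SE 0.37; edgeR's quasi-likelihood test, Benjamini-Hochberg adjusted p = 0.0315). It was the 1 member of 36 called at an adjusted p under 0.05, against 6.57% of all tested genes called in either direction (3.96% higher). Myc had a log2 fold change of −0.32 (SE 0.24, adjusted p = 0.508), with a 95% interval from −0.80 to 0.15. None of the 32 ribosome biogenesis genes was called by edgeR, DESeq2 or limma-voom on all 16 libraries, and none had an unadjusted edgeR p under 0.05, where 21.9% of all genes did. Their median log2 fold change was −0.027, beside −0.025 over all tested genes, with 14 positive and 18 negative (47.7% of all genes were positive). Signs differed by role. The 7 box C/D and H/ACA particle genes had 1 positive and 6 negative (median −0.19), and the 10 large subunit genes 3 and 7 (−0.099). The 7 abundant nucleolar proteins had 5 and 2 (0.021), the 6 processome genes 3 and 3 (0.021), and Polr1a and Polr1b were positive.

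The ribosome biogenesis genes with the largest positive values in bone marrow were Gnl3 (0.32, SE 0.19), which encodes the nucleolar GTPase nucleostemin, and Rrp12 (0.21, SE 0.17), a factor for export and maturation of pre-ribosomes. At the other end were Wdr43 (−0.37, SE 0.18), a processome protein, Nle1 (−0.31, SE 0.18), a large subunit assembly factor, and Nop58 (−0.27, SE 0.22), a box C/D particle core protein. Wdr43 was at 159, 179 and 137 CPM in controls and 116, 130 and 122 CPM after doxycycline, without overlap. Gnl3 was at 176, 191 and 157 CPM and then 219, 217 and 218 CPM, also without overlap. In all, 4 members (Mxd1, Rrp12, Gnl3 and Max) lay wholly higher and 2 (Nle1 and Wdr43) wholly lower, 11.1% and 5.56% of the 36, against 23.1% and 24.6% of all tested genes. Both shares were below the background.

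The Mxd1 call depended on the libraries in the fit: its log2 fold change stayed between 1.37 and 1.64, but the adjusted p was 0.0703 to 0.14 without any 1 of the 6 bone marrow libraries, 0.0502 to 0.0535 without any 1 spleen control, and 0.0693 without the filter on low counts. The background share rested on single libraries too: 23 genes (0.154%) were called without bone marrow control replicate 2 and 2428 (17%) without secondary disease replicate 4. With the 6 bone marrow libraries fitted alone, 4929 genes (36.6%) were called, among them Mxd1 and Gnl3 higher and Nle1 and Wdr43 lower. Erythroid genes moved in the same comparison: haemoglobin counts were 0.212 to 0.416% of a library in controls and 4.50 to 5.60% after doxycycline, and 11 of 14 erythroid markers were called higher (median log2 fold change 3.18). Summed mature neutrophil markers were 897 to 1337 CPM in controls and 329 to 672 CPM after doxycycline, with 0 of 12 called. Over the 16 libraries, Mxd1 had r = 0.93 with summed globin (log2 CPM; libraries of 1 group share treatment and tissue). The part of other cells in these values was not tested, and in these bulk samples fewer cells of a type and less RNA per cell cannot be told apart.

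In the spleen after doxycycline, Myc lay below the controls in all 3 libraries without passing the test, and the ribosome biogenesis genes had values on both sides of 0. The log2 fold change of Myc was −0.76 (SE 0.24, 95% interval −1.24 to −0.28; edgeR adjusted p = 0.168, unadjusted p = 0.00738). That of Mxd1 was 1.62 (SE 0.37, adjusted p = 0.0612). None of the 36 members was called by edgeR, against 0.741% of all tested genes, and 3 had an unadjusted p under 0.05 (12.4% of all genes did): Mxd1 higher, and Myc and Gar1 lower. The Wald test of DESeq2 called Mxd1 (adjusted p = 0.00145) and Myc (adjusted p = 0.0433), where it called 4.95% of all genes. The median over the 32 ribosome biogenesis genes was −0.047, beside 0.025 over all genes, with 12 positive and 20 negative (52.4% of all genes were positive).

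Values of single ribosome biogenesis genes in the treated spleen ran in both directions. The largest positive ones were Wdr12 (0.38, SE 0.21), a subunit with Pes1 and Bop1 of the PeBoW complex for large subunit assembly, and Nop58 (0.29, SE 0.22). The most negative were Utp20 (−0.38, SE 0.26), a large processome scaffold, and Gar1 (−0.33, SE 0.14), a box H/ACA particle protein. Utp20 was at 132, 127 and 125 CPM in controls and 78.7, 115 and 102 CPM after doxycycline, all lower. In all, 6 members (Utp20, Myc, Mybbp1a, Utp4, Grwd1 and Rrs1) lay wholly below the controls and 1 (Mxd1) wholly above, 16.7% and 2.78% of the 36, against 10.7% and 9.34% of all tested genes.

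Spleen doxycycline replicate 1 resembled the controls in Myc, Mxd1 and globin, and the calls depended on it. Without it, 1364 genes (9.13%) were called, and 5 of them were members: Mxd1 (log2 fold change 1.98) and Wdr12 (0.61) higher, and Myc (−1.15, adjusted p = 0.00291), Rrp9 (−0.56) and Gar1 (−0.50) lower. Without secondary disease replicate 4, which is no part of this comparison but shares the model, Mxd1 was called (adjusted p = 0.0308). The 2 libraries with low Myc were those with 7.15 and 3.73% globin counts, and replicate 2 also had the lowest leukaemia marker sum and the highest sum of 18 cell cycle genes, 8348 CPM against 2520 to 5720 CPM in the other 15 libraries. Their part in the Myc value was not tested.

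Whether doxycycline acted differently on the members in spleen and bone marrow was tested as an interaction. Its value for Myc was −0.44 (SE 0.34, 95% interval −1.11 to 0.23; edgeR adjusted p = 0.868) and for Mxd1 0.13 (SE 0.51, adjusted p = 0.991). Nop58 had the most positive value (0.56, SE 0.31), followed by Wdr43 (0.34, SE 0.25) and Nhp2 (0.27, SE 0.26). Myc had the most negative, followed by Polr1a (−0.38, SE 0.19), the largest subunit of RNA polymerase I, and Utp20 (−0.37, SE 0.36). None of the 36 members was called, none had an unadjusted p under 0.05 by edgeR, and no alternative fit, DESeq2 included, called any. Of all tested genes, 0.0485% were called and 7.63% had an unadjusted p under 0.05. Values were positive in 14 of the 36 members and in 54.4% of all genes.

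The broadest difference among the members was between the control tissues. Of the 36 genes, 34 had a higher fitted level in spleen than in marrow, where 48.2% of all tested genes did, and the median log2 fold change was 0.22 beside −0.011 over all genes. Of the members, 22 lay wholly higher in the 3 spleen controls than in the 3 bone marrow controls (61.1%, against 16.3% of all tested genes). Mxd1 alone lay wholly lower (2.78%, against 16.5%). By the test, however, 0 members were called in the model of all 16 libraries, against 0.187% of all genes, and 5 had an unadjusted p under 0.05 (6.92% of all genes did): Gar1, Nat10, Grwd1, Nolc1 and Myc, all higher.

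Myc was 1.45-fold higher in spleen than in marrow controls (log2 fold change 0.54, SE 0.24, edgeR adjusted p = 0.687), and Mxd1 had a value of −0.56 (SE 0.36, adjusted p = 0.990). Gar1 was at 96.5, 83.1 and 80.7 CPM in marrow and 124, 114 and 121 CPM in spleen (0.46, SE 0.14, adjusted p = 0.271). Grwd1, whose product is a histone-binding factor of large subunit assembly, was at 57.1, 50.9 and 49.8 CPM and then 67.4, 67.7 and 70.9 CPM (0.39, SE 0.15, adjusted p = 0.552). For both, every spleen library exceeded every marrow library. Utp20 also had 0.39 (SE 0.26). The smallest values among the ribosome biogenesis genes were those of Nop58 (−0.087, SE 0.22), Pes1 (0.016, SE 0.15) and Wdr43 (0.043, SE 0.18).

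By role, the median spleen-minus-marrow value was 0.26 for the 7 abundant nucleolar proteins, 0.24 for the 7 box C/D and H/ACA particle genes, 0.20 for the 6 processome genes, 0.19 for the 10 large subunit genes and 0.17 for Polr1a and Polr1b. The first 7 include the RNA helicase gene Ddx21, the nucleolin gene Ncl and the acetyltransferase gene Nat10. Of these 7, 6 lay wholly higher in spleen (85.7%, against 16.3% of all tested genes). Genes of the same pathways outside the members were listed apart. Of other MYC target genes, 29 of 34 were positive (median 0.23), as were 28 of 36 further processome genes and 34 of 40 further large subunit genes (medians 0.10 and 0.10). Smaller medians were those of 13 further small nucleolar particle genes (0.066, 10 positive), 13 further RNA polymerase I genes (0.073, 7 positive) and 7 further MYC network genes (0.003, 4 positive). The 22 cytosolic ribosomal protein genes had 9 positive and a median of −0.052. None of the genes in these 7 lists was called.

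When the 6 control libraries were fitted alone, 1927 genes (14.7%) were called, and 10 members were among them. Of these, 9 were higher in spleen (Myc, Gar1, Utp20, Grwd1, Ppan, Nat10, Rrp9, Nolc1 and Rrs1) and Mxd1 was lower; Myc had an adjusted p of 0.00480. DESeq2 on all libraries called Nat10 and Gar1, and 2.11% of all genes. All 12 mature neutrophil markers had negative values in this comparison (median log2 fold change −3.34), summing to 897 to 1337 CPM in marrow and 54.9 to 172.5 CPM in spleen controls, although 0 of 12 were called. Of 13 leukaemia and myeloid markers, 10 had negative and 3 positive values (median −0.82). Wholly lower in spleen were 7 of these 13 (53.8%, against 16.5% of all tested genes), and 1 was called lower. The part of neutrophil RNA and of these markers' cells in the tissue difference of the members was not tested.

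After doxycycline the ribosome biogenesis genes again had higher fitted levels in spleen than in marrow, while Myc did not separate the tissues. Spleen minus marrow gave 31 of the 32 genes a positive value both here and in the controls, with medians of 0.21 and 0.22; over all 36 members 32 were positive here, against 52.8% of all genes. For Myc it gave 0.097 (SE 0.24, edgeR adjusted p = 0.939), and the groups overlapped; the change of this tissue difference is the interaction given above, which was not called. The largest values were those of Nhp2 (0.51, SE 0.19), a box H/ACA protein, Nop58 (0.47, SE 0.22) and Npm1 (0.44, SE 0.21), and the lowest those of Mxd1 (−0.43, SE 0.36), Polr1a (−0.14, SE 0.13) and Max (−0.081, SE 0.13). No member was called in the model of all libraries, against 0.0485% of all genes; 7 had an unadjusted p under 0.05 (10.9% of all genes did) and DESeq2 called 0. Without spleen doxycycline replicate 2, Mxd1 was called lower in spleen (−1.19, adjusted p = 0.00813; 7.18% of all genes called), and without secondary disease replicate 4 Nop56 was called higher (adjusted p = 0.0468; 2.69%). In all, 4 members (Nhp2, Nolc1, Nop56 and Wdr43) lay wholly higher and 0 wholly lower, 11.1% and 0% of the 36, against 5.98% and 9.5% of all genes. Cell type markers differed as well: all 12 mature neutrophil markers lay wholly lower in the treated spleen (median log2 fold change −2.96), as did 6 of 13 leukaemia and myeloid markers (median −0.83 over the 13), with 0 called in either list. Their part in the difference of the members was not tested.

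**Figure D2:**
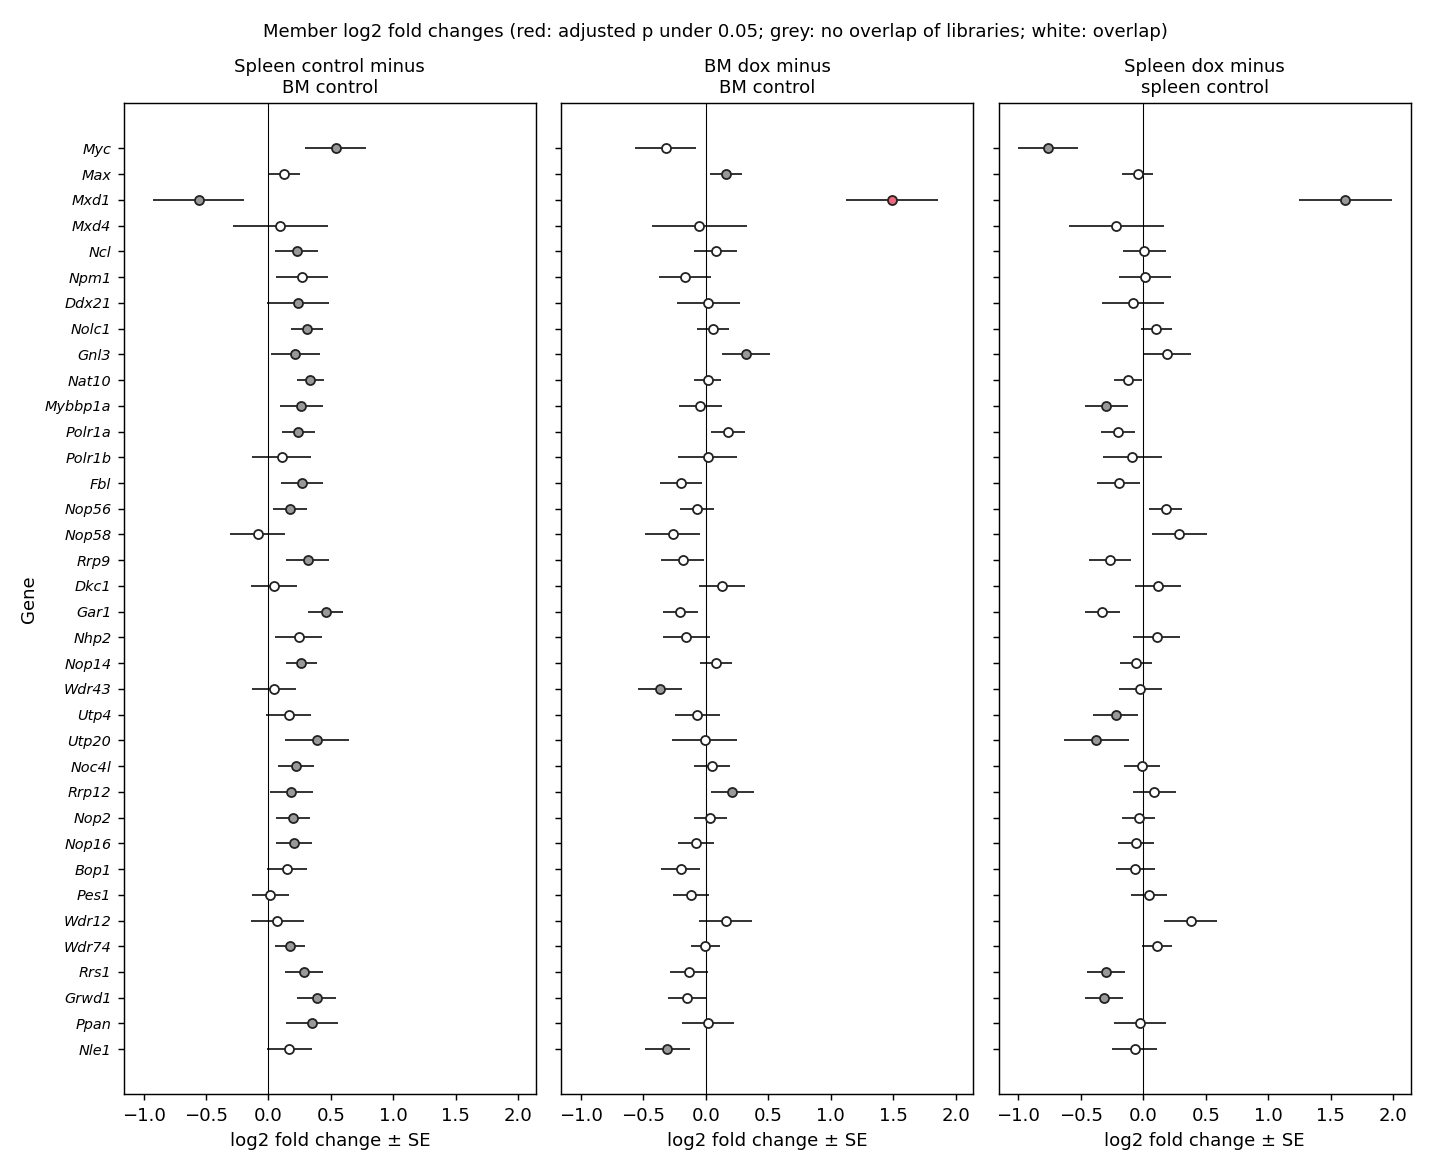
Log2 fold change with its SE for each of the 36 members in 3 comparisons: spleen control minus bone marrow (BM) control, and doxycycline (dox) minus control in either tissue. Red marks a call, grey no overlap of libraries and white overlap; 34 of 36 values lie above 0 in the tissue comparison, and values lie on both sides of 0 in the doxycycline ones.

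Secondary disease replicates 1, 2 and 3 had ribosome biogenesis genes near the level of spleen controls, while replicate 4 was lower on average over these genes (set levels are given below). Myc was somewhat lower than in spleen controls in every secondary disease library. Against spleen controls the log2 fold change of Myc was −0.40 (SE 0.23, edgeR adjusted p = 0.456) and that of Mxd1 0.49 (SE 0.34, adjusted p = 0.578), and neither gene overlapped between the groups. No member was called or had an unadjusted p under 0.05, and DESeq2 called none, whereas edgeR called 2.03% of all genes and 15.1% had an unadjusted p under 0.05. The median over the 36 was −0.049, beside 0.016, with 11 positive (51.6% of all genes). After Mxd1, the highest values were those of Nop58 (0.18, SE 0.20) and Bop1 (0.17, SE 0.15), and after Myc the lowest were Utp20 (−0.27, SE 0.24) and Fbl (−0.24, SE 0.16), the fibrillarin gene. In all, 2 members (Mxd1 and Nolc1) lay wholly higher and 5 (Nle1, Myc, Mybbp1a, Fbl and Npm1) wholly lower, 5.56% and 13.9% of the 36, against 8.85% and 12.4% of all genes.

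Against spleen doxycycline, secondary disease had Myc at 0.37 (SE 0.23, edgeR adjusted p = 0.445) and Mxd1 at −1.13 (SE 0.34, adjusted p = 0.121). Next to Myc, the highest values were those of Grwd1 (0.25, SE 0.14) and Bop1 (0.23, SE 0.15); next to Mxd1, the lowest were Wdr12 (−0.43, SE 0.20) and Npm1 (−0.25, SE 0.19). No member was called (background 0.928%), 2 (Mxd1 and Wdr12) had an unadjusted p under 0.05 (17.4% of all genes did), and 18 of 36 values were positive (49.2% of all genes). No member lay wholly higher or wholly lower, against 3.08% and 4.16% of all genes. DESeq2 called Mxd1 (adjusted p = 0.0318; 6% of all genes). Without spleen doxycycline replicate 1, edgeR called 8.94% of all genes and 5 members: Mxd1 (−1.50) and Wdr12 (−0.66) lower, and Myc (0.75, adjusted p = 0.0268), Bop1 (0.45) and Rrp9 (0.44) higher. Erythroid markers were negative throughout in this comparison (14 of 14, median −2.83), with 4 called lower and 13 at an unadjusted p under 0.05, and all 18 cell cycle genes had negative values (median −0.28, 0 called). Their part in the Mxd1 and Myc values was not tested.

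**Figure D3:**
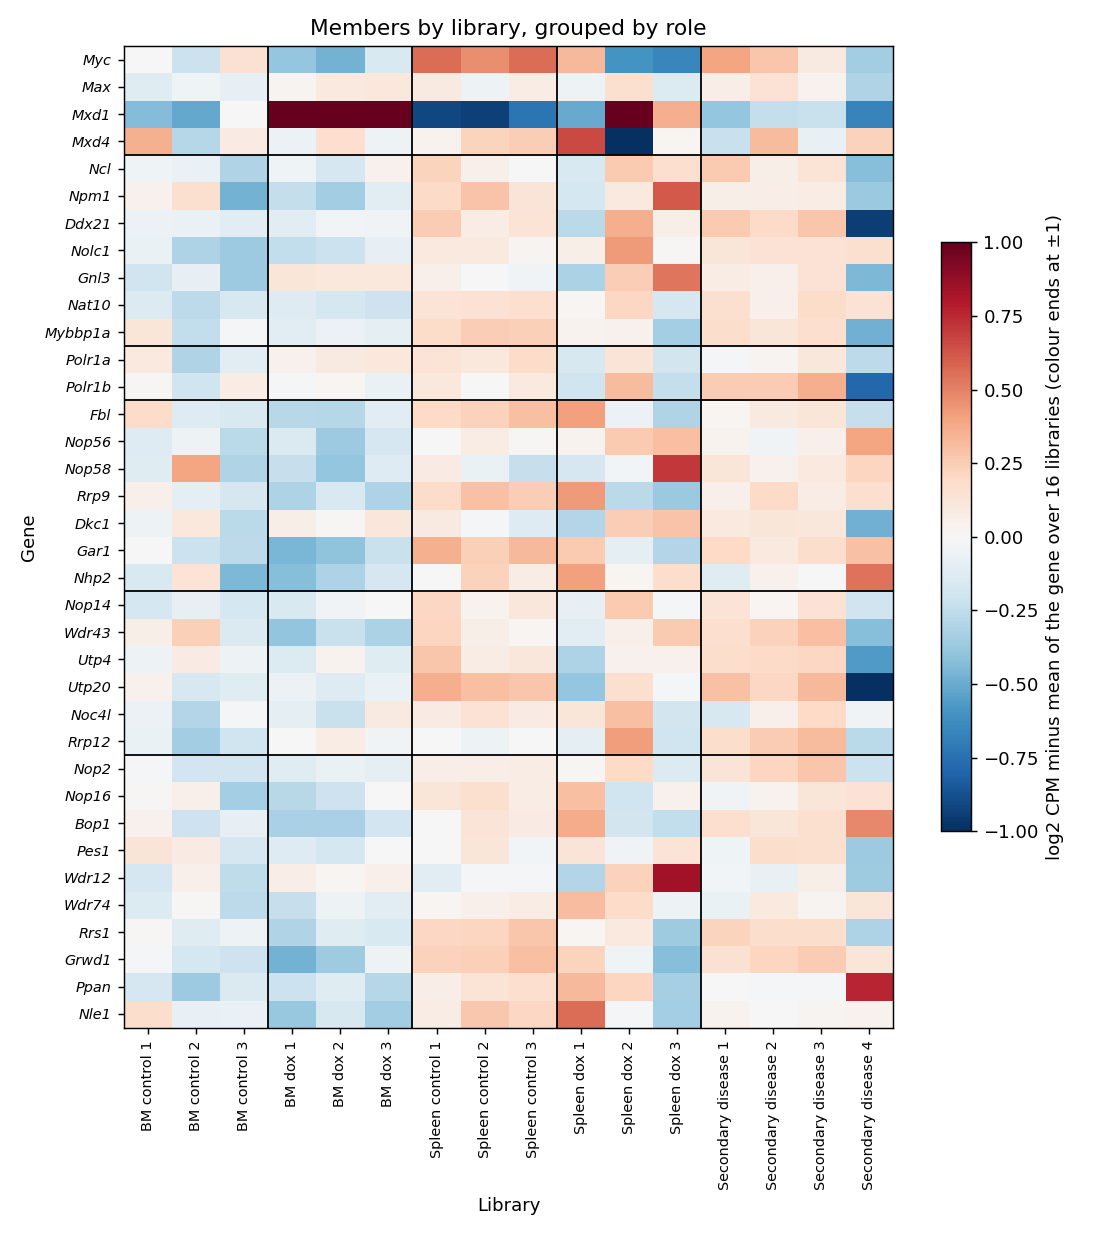
Log2 CPM of each member in each library relative to the gene's mean over the 16 libraries, with the colour scale ending at ±1. Columns are libraries by group and rows are genes by role; secondary disease replicate 4 stands out as low in Ddx21, Utp20 and Polr1b.

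A set level was computed per library as the mean over the 32 ribosome biogenesis genes of log2 CPM relative to each gene's own mean. It was 0.13, 0.12 and 0.11 in spleen controls and −0.026, −0.084 and −0.19 in bone marrow controls. In treated bone marrow it was −0.18, −0.15 and −0.093, and in treated spleen 0.032, 0.12 and 0.00. In secondary disease it was 0.096, 0.11, 0.16 and −0.14, replicate 4 being the low one. All spleen controls lay above all bone marrow libraries, and the total span was under 0.4 log2 units. Myc CPM spanned 167 to 386, but that is a single gene, while the set level is a mean over 32. Single genes of the set, such as Utp20 (50.7 to 132 CPM), could span more than the set level.

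Over the 16 libraries the set level had a Pearson r of 0.520 and a Spearman rho of 0.491 with log2 CPM of Myc. This is a description: libraries of a group share tissue and treatment, and both values share the scaling of the library. Within groups, as deviations from group means, r was 0.307 and rho 0.212. In the 12 libraries of the 7-day experiment r was 0.438. Leaving out 1 library at a time gave 0.468 to 0.697, the highest without spleen doxycycline replicate 2.

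The 2 libraries farthest from the median of Myc, spleen doxycycline replicates 2 and 3, did not take the same place in both measures. Their Myc was 173 and 167 CPM, below every treated marrow library, yet their set levels were 0.12 and 0.00, above every marrow library. Without these 2, r was 0.806 and rho 0.714 over 14 libraries. Their globin shares and the low marker sum of replicate 2, given above, moved with this departure, and their part in it was not tested. Bone marrow control replicate 3 went the other way: its Myc was the highest of the marrow libraries at 292 CPM and its set level the lowest of all at −0.19, and r was 0.620 without it. Secondary disease replicate 4, with Myc at 206 CPM and a set level of −0.14, was low in both. Its roles split, however, and 13 of the 32 genes lay above their own mean. Levels were −0.53 for RNA polymerase I, −0.42 for processome and −0.34 for abundant nucleolar genes. They were 0.13 for box C/D and H/ACA and 0.041 for large subunit genes. Spleen doxycycline replicate 1 split likewise, with −0.18, −0.14, −0.11, 0.15 and 0.20 in the same order of roles.

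**Figure D4:**
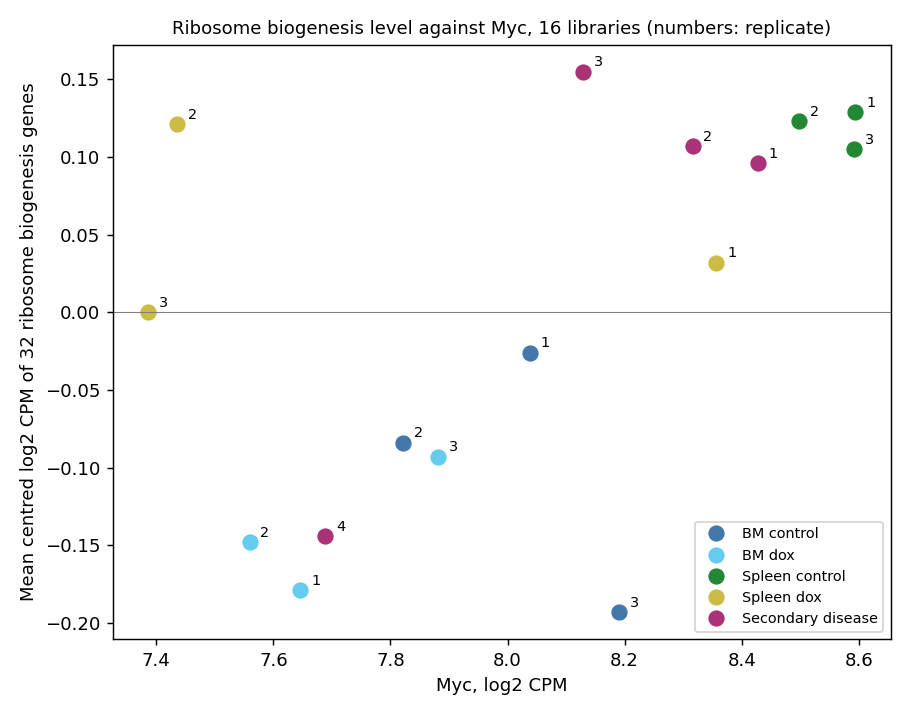
Set level of the 32 ribosome biogenesis genes (log2 units, vertical) against log2 CPM of Myc (horizontal), 1 point per library coloured by group. Spleen controls lie at the upper right, and spleen doxycycline replicates 2 and 3 lie at low Myc with set levels of 0.12 and 0.00.

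The value of r also rested on the scale. On the deposited TPM it was 0.903. In TPM the median tested gene of a library was shifted against its CPM. The shift ran from −0.28 (secondary disease replicate 4) to 0.26 (bone marrow control replicate 3) log2 units. It was taken over tested genes with a mean of at least 10 CPM. How far Myc and each of the 32 genes shared it was not measured. With each library's TPM centred on its median tested gene, an alternative chosen after the data were seen, r was 0.515.

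Single genes differed in how closely they went with Myc. Of the 32, 27 had a positive r with Myc over 16 libraries and 8 had r above 0.5, that is 25.0%, where 14.5% of all tested genes did. Their median r was 0.30, beside 0.020 over all genes. The 6 highest were Fbl (0.81), Rrs1 (0.79), Grwd1 (0.78), Rrp9 (0.78), Mybbp1a (0.74) and Gar1 (0.73). FBL is the methyltransferase of box C/D particles and RRP9 binds the U3 snoRNA, RRS1 recruits 5S particle components to the large subunit, and MYBBP1A is a nucleolar MYB-binding protein. As deviations from group means, the 32 genes had a median r of 0.18, from −0.75 (Nop56) to 0.80 (Fbl), with 23 positive and 7 above 0.5 (21.9%, where 16.2% of all tested genes were). The 6 named here had 0.53 to 0.80. Globin moved with the same genes: r with summed globin was −0.72 for Myc itself, −0.71 for Rrp9, −0.64 for Gar1, −0.59 for Grwd1, −0.56 for Fbl, −0.46 for Rrs1 and −0.29 for Mybbp1a. Mxd1 went inversely with these genes: r was −0.80 for Rrp9, −0.76 for Gar1, −0.66 for Grwd1, −0.61 for Fbl, −0.43 for Rrs1 and −0.26 for Mybbp1a. Over the 32 genes the median r with Mxd1 was −0.23, beside 0.03 over all genes. The parts of globin and Mxd1 in the agreement of these genes with Myc were not tested.

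Fbl, the gene with the highest r, followed Myc in some libraries and not in others. It was at 437, 446 and 467 CPM in spleen controls and 432, 348 and 341 CPM in marrow controls. It was at 314, 312 and 351 CPM in treated marrow and 505, 365 and 308 CPM in treated spleen. In secondary disease it was at 386, 404, 413 and 323 CPM. The treated spleen libraries thus took the same order as in Myc for replicate 1 against the other 2, and secondary disease replicate 4 was lowest of its group in both genes. In secondary disease replicates 1, 2 and 3, however, Myc fell (344, 319 and 280 CPM) while Fbl rose. Bone marrow control replicate 3 had the highest Myc of the marrow libraries (292 CPM) and the lowest Fbl of the controls. Spleen doxycycline replicate 1 had the highest Fbl of all libraries, with Myc (328 CPM) below every spleen control.

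At the other end, Mxd1 had r = −0.74 with Myc, Wdr12 −0.51, Gnl3 −0.35 and Nop58 −0.27. Nop58 was at 361 CPM in spleen doxycycline replicate 3, its highest library, where Myc was at its lowest. Wdr12 was likewise highest there, at 119 CPM against 51.9 to 78.1 CPM in the other 15 libraries. Without spleen doxycycline replicates 2 and 3 the r values of Wdr12, Gnl3 and Nop58 were −0.11, 0.040 and 0.050. Over those 14 libraries 31 of 32 genes had a positive r and 18 had r above 0.5, where 14.6% of all tested genes did. Mxd1 kept −0.69.

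**Figure D5:**
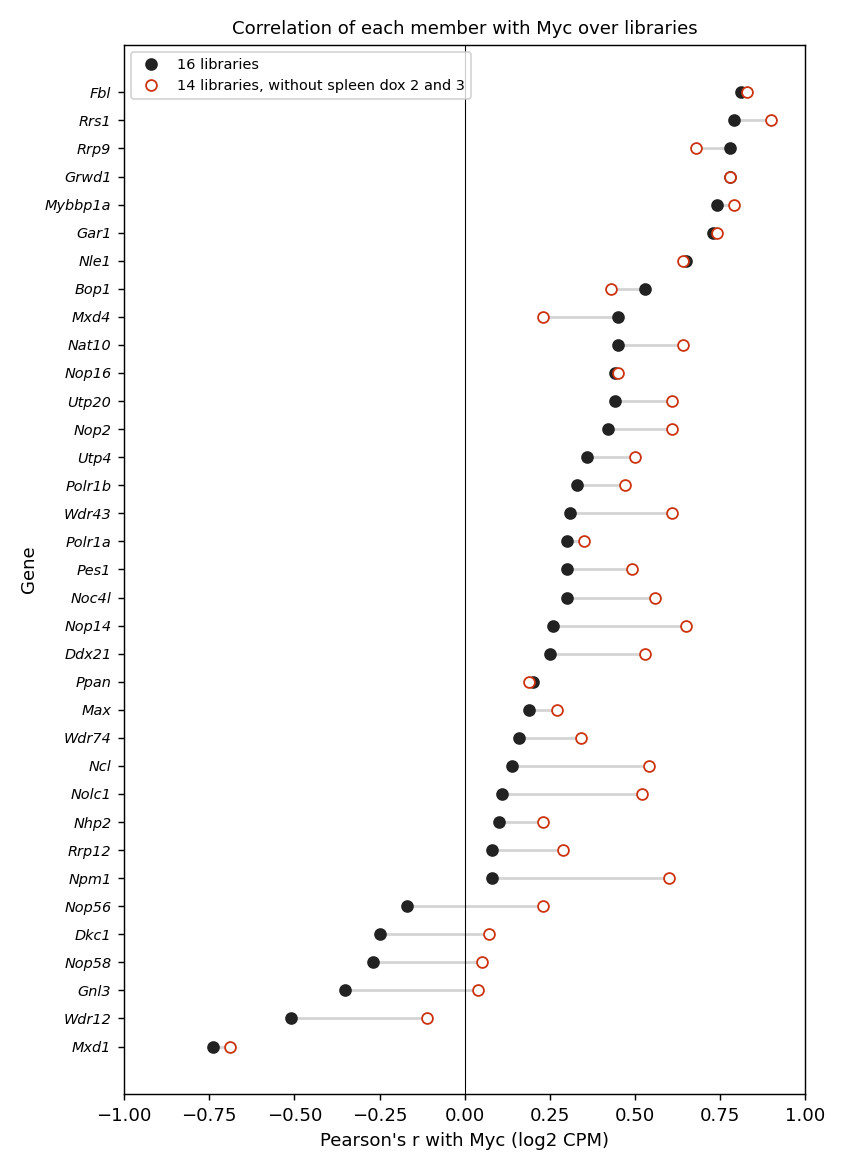
Pearson r of each member with Myc (log2 CPM) over all 16 libraries and without spleen doxycycline replicates 2 and 3. Fbl is highest at 0.81 and Mxd1 lowest at −0.74 over the 16 libraries.

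Genes with and without the printed E-box motif were set side by side. The 8 ribosome biogenesis genes with CACGTG in their window had a median r with Myc of 0.43 (range 0.30 to 0.78), and the 19 with a window but no match had 0.20 (range −0.51 to 0.78). For the spleen-minus-marrow difference of controls the order was the other way, with medians of 0.18 and 0.23. Wholly higher in spleen were 4 of 8 and 14 of 19 genes, where 16.3% of all tested genes were. The letters in the window thus did not order the 2 measures alike.

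Among genes outside the members, the 5 whose log2 CPM went most closely with the set level over the 16 libraries were Set (r = 0.939), Pa2g4 (0.933), Pwp2 (0.909), Gpat4 (0.879) and Rrp1b (0.871). Set, a histone chaperone gene, was at 702 to 791 CPM in spleen controls, 522 to 627 CPM in marrow controls and 508 to 562 CPM in treated marrow. In treated spleen it was at 654, 645 and 633 CPM and in secondary disease at 742, 686, 732 and 519 CPM, replicate 4 again the lowest. Its libraries therefore separated spleen from marrow in the 12 libraries of the 7-day experiment, both with and without doxycycline.

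Outside the members, edgeR's calls among the listed pathway genes on all 16 libraries were confined to treated marrow. There, 4 of 34 other MYC targets were called, where 6.57% of all tested genes were: Mthfd2, a mitochondrial folate enzyme gene (1.07, SE 0.29, edgeR adjusted p = 0.0413), and Eif4ebp1, a translation inhibitor gene (0.65, SE 0.12, adjusted p = 0.0111), were higher, and the folate enzyme gene Shmt1 (−0.95, SE 0.21, adjusted p = 0.0186) and the pyrimidine synthesis gene Umps (−0.65, SE 0.16, adjusted p = 0.0308) were lower. In the other 6 comparisons 0 of the 34 were called. Of the 7 further MYC network genes tested, 13 RNA polymerase I genes, 36 processome genes, 40 large subunit genes and 13 small nucleolar particle genes, 0 were called in any of the 7 comparisons by edgeR. In treated marrow all 13 small nucleolar particle genes had negative values (median −0.27), where 47.7% of all genes were positive. Of the 13, 6 lay wholly below the marrow controls (46.2%, against 24.6% of all tested genes). Znhit6 and Rpap3 had an unadjusted edgeR p under 0.05, a share below the 21.9% of all genes.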

How the data were processed

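RNA was enriched with oligo-dT beads and prepared with the NEBNext Ultra II kit, per the labels' protocols. Whether strand was kept is not stated there, and 15 of the 36 members overlap an antisense exon, so such reads cannot be told apart. The authors deposited expected counts for 55487 genes in 16 columns and TPM per library. Per the submitters' processing notes, tools included STAR, RSEM and Trim Galore, and the build was GRCm38. The members and gene lists were chosen with earlier results of these data known.

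Expected counts were rounded and tested with edgeR 4.0.16 (R 4.3.3; filterByExpr, TMM, glmQLFit robust, glmQLFTest) in 1 model of 16 libraries and 5 groups. P-values are two-sided, with Benjamini-Hochberg adjustment over 14435 genes, and calls are at 0.05. SE was derived from the F statistic (log2 fold change divided by the root of F), and 95% intervals are 1.96 SE either side. Libraries were grouped by their titles. Correlations used log2 CPM with a prior count of 1; TPM used log2(TPM + 1). Named genes were Myc, Max, Mxd1 and Mxd4, every called member, the 3 highest and lowest members per comparison, the 6 highest and 4 lowest r with Myc, the 5 non-members most like the set level and up to 3 genes per other list by smallest p; other members named were chosen after their values were seen. Alternatives were DESeq2 1.42.0 (size factors, Wald test), limma-voom (limma 3.58.1), the replicate block, each library left out, a fit of only the groups compared, a minimum mean count of 50 and no filter. The steps were tested on simulated data with planted changes larger than those of the ribosome biogenesis genes here. The simulation therefore does not tell how often changes as small as theirs are missed.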

Additional observations from a re-analysis of the deposited data

Results flagged for a closer look

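In secondary disease, the only group of 4 libraries, replicate 4 lay far from the other 3 in 10 of the 36 genes by Dixon's criterion. For a single gene, chance flags about 1 group in 20, but genes of 1 library are not independent. The share flagged among all tested genes was not computed, so whether the count is particular to the members is not known. Over all genes, the chi-square per degree of freedom between replicate 4 and each other replicate was 276.2 to 301.5. Among the other 3 it was 10.98 to 34.08. It was below the others in 8 genes and above them in 2. Npm1 was at 902 CPM against 1217 to 1226 in the other 3, Ddx21 at 227 against 497 to 527, and Mybbp1a at 301 against 456 to 474. Polr1b was at 48.05 CPM against 99.0 to 106, Dkc1, the pseudouridine synthase gene, at 123 against 184 to 187, and Utp4 at 66.4 against 112 to 114. Utp20 was at 50.7 CPM against 118 to 129, and Rrs1 at 71.0 against 99.3 to 103. The 2 genes above were Bop1, at 192 CPM against 150 to 155, and Ppan, at 258 against 151 to 152. This library had the lowest depth, 12.26 M expected counts, and the highest mitochondrial share, 7.78%; their part in these values was not tested.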

How the results depend on the processing

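The median member log2 fold change stayed within the replicate spread, 0.109 log2 units, of its value in 161 of 161 refits. This limit is wide beside medians near 0 and passes a change of sign. In treated marrow the median was −0.0275, and 0.0456 without bone marrow control replicate 1. The count of members called moved in 20 of 161. In treated against control marrow it was 1; it was 0 with no filter, 4 with only the groups compared, and 0 to 1 leaving out libraries. In treated against control spleen it was 0, 2 with DESeq2's Wald test and 0 to 5 leaving out libraries (5 without spleen doxycycline replicate 1). Between control tissues it was 0, 2 with DESeq2's Wald test, 10 with only the groups compared, and 0 leaving out libraries. Between treated tissues it was 0, and 0 to 1 leaving out libraries; in secondary disease against treated spleen it was 0, 1 with DESeq2's Wald test, and 0 to 5 leaving out libraries. The interaction and secondary disease against spleen control stayed at 0 throughout. The r of Myc with the set level was 0.520, and 0.903 on TPM, 0.806 without spleen doxycycline replicates 2 and 3, and 0.468 to 0.697 leaving out 1 library. The cause of these shifts was not tested, except that fits of only the groups compared or without a library change the estimated spread. Over all genes, calls in treated marrow went from 949 to 349 with no filter, 1966 with the replicate block, 1996 with DESeq2 and 4929 with only the groups compared; in treated spleen from 107 to 10, 374, 715 and 1. Leaving out 1 library moved these counts to 23 to 2428 in treated marrow, 0 to 1364 in treated spleen, 0 to 645 for the interaction, 0 to 190 between control tissues, 1 to 1072 between treated tissues, 61 to 523 for secondary disease against spleen control and 0 to 1336 against treated spleen, so each background share rests on single libraries. Same-numbered libraries did not deviate together (r of −0.437 to 0.361), and the numbers were not taken as pairs. With so few libraries per group, this cannot show whether samples came from the same animals. The replicate block changed no count of members called, and gave Mxd1 1.48 (edgeR adjusted p = 0.0234) in treated marrow. In that block, number 4 holds only secondary disease replicate 4. The block fit therefore also takes out that library and is no clean check of pairing.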
